A study of Mus musculus with 15 samples.

Results

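FL-shGFP crypts, from mice with a fatty liver on the CDAA diet, were compared gene by gene with NL-shGFP crypts, from mice with a normal liver on the normal diet. The comparison took 10 of the 15 RNA-seq libraries of the series, 5 a group, chosen by their labels alone. All 10 are colonic crypt RNA of wild-type mice that received AAV-shGFP, the vector with the control hairpin, so vector and genotype are shared and diet and liver condition change together. The other 5 libraries (CDAA diet, fatty liver, AAV-shAlpl) entered only the count filter, the scaling factors and the estimate of the spread. The labels give no age, sex, harvest time, stretch of colon or animal for any library, and the p-values measure the spread between samples, which may be technical.

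CDAA stands for feeds that lack choline and carry free amino acids in place of protein, and they are used to make the mouse liver store fat. Choline is needed to make phosphatidylcholine for membranes and lipoproteins, and its oxidation product betaine gives a methyl group back to homocysteine. The crypt is the pocket of the colonic wall in which dividing cells at the base give rise to absorptive colonocytes, mucus-making goblet cells and hormone cells that move up to the surface. Colonocytes burn short-chain fatty acids in their mitochondria, take up sodium and water, and respond to glucocorticoids, aldosterone, feeding time and the liver's bile.

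Of 32939 genes in the table, 17404 passed the count filter and were tested. Of these 8128 (46.7%) changed at an edgeR adjusted p below 0.05, with 4376 (25.1%) higher and 3752 (21.6%) lower in FL-shGFP. A change of at least 2-fold was called for 3561 genes (20.5%), 2314 (13.3%) higher and 1247 (7.17%) lower. The median log2 fold change over all tested genes was -0.0016. With libraries scaled by their totals alone, 6868 genes changed and 65.8% of these were higher, against 53.8% with TMM factors. A value with ± after a gene symbol, where no unit follows, is its edgeR log2 fold change, FL-shGFP over NL-shGFP, with the standard error. CPM are counts relative to library size in M counts, scaled with the TMM factors, and lists of 5 values run from replicate 1 to replicate 5. The CPM of the 2 groups did not overlap for 5960 tested genes (34.2%), with FL-shGFP above in 3148 (18.1%) and below in 2812 (16.2%).

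The 10 libraries held 33.3 to 51.7 M counts, with 36.9 ± 4.02 M in NL-shGFP and 46.6 ± 5.33 M in FL-shGFP (SD, n = 5, two-sided exact permutation p = 0.0238, adjusted over 4 library measures 0.0238). The first principal component of log2 CPM, with 62.3% of the variance, held the 2 groups apart. NL-shGFP replicate 5 stood apart from the other 4 of its group on both leading components, and FL-shGFP replicates 3 and 5 lay nearest to NL-shGFP on the first. Without NL-shGFP replicate 5, 7204 genes changed, and without FL-shGFP replicate 5, 8816. The NL-shGFP replicates 1 and 2, and 3 and 4, were closer to each other than to the rest (below, the close NL-shGFP pairs), and 6186 genes changed with each pair summed to 1 library. The spread within a group was larger in FL-shGFP for 72.5% of tested genes. Epithelial markers were high in both groups, with Epcam at 1234 and 1675 mean CPM and Cdh1 at 868 and 1287, while the hepatocyte marker Alb had at most 0.568 CPM. Stem cell genes fell (17 of 20) and colonocyte genes rose (23 of 30). T and NK cell genes rose (20 of 21, summed 26.8 to 96.3 CPM in NL-shGFP and 131 to 370.4 CPM in FL-shGFP), as did B and plasma cell genes (7 of 15, 349 to 388 CPM in NL-shGFP and 582 to 1205 CPM in FL-shGFP), myeloid genes (12 of 23, 254 to 639.5 CPM in NL-shGFP and 1267 to 2466 CPM in FL-shGFP) and genes of stroma, muscle, vessel and glia (12 of 22, 55.9 to 122 CPM in NL-shGFP and 120.4 to 477 CPM in FL-shGFP). Without FL-shGFP replicate 4 the myeloid count was 7. List counts of 5 or fewer rest on single genes, and several moved by over 1.5 times when 1 library was left out. Of 3 tested adipose genes 2 rose, Fabp4 and Cidec, which also count in the lipid droplet list below (summed 1.59 to 3.01 CPM in NL-shGFP and 12.5 to 22.6 CPM in FL-shGFP, without overlap). Of 11 small intestine and Paneth genes 4 rose, Alpi, Sis, Slc5a1 and Rbp2, and 2 fell, Fabp2 and Gata4 (summed 301 to 485 CPM in NL-shGFP and 337 to 531 CPM in FL-shGFP). The adipose marker Adipoq, the small intestine marker Lct and the Paneth marker Defa17 were at or near 0 in both groups. Of 6 erythroid genes and 4 liver and pancreas genes, 0 passed with edgeR (0 and 2 at an unadjusted p below 0.05), and 1 of each passed with DESeq2. In bulk RNA, fewer cells of a type and less RNA per cell cannot be told apart, and the part of these shifts in the results that follow was not tested.

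**Figure D1:**
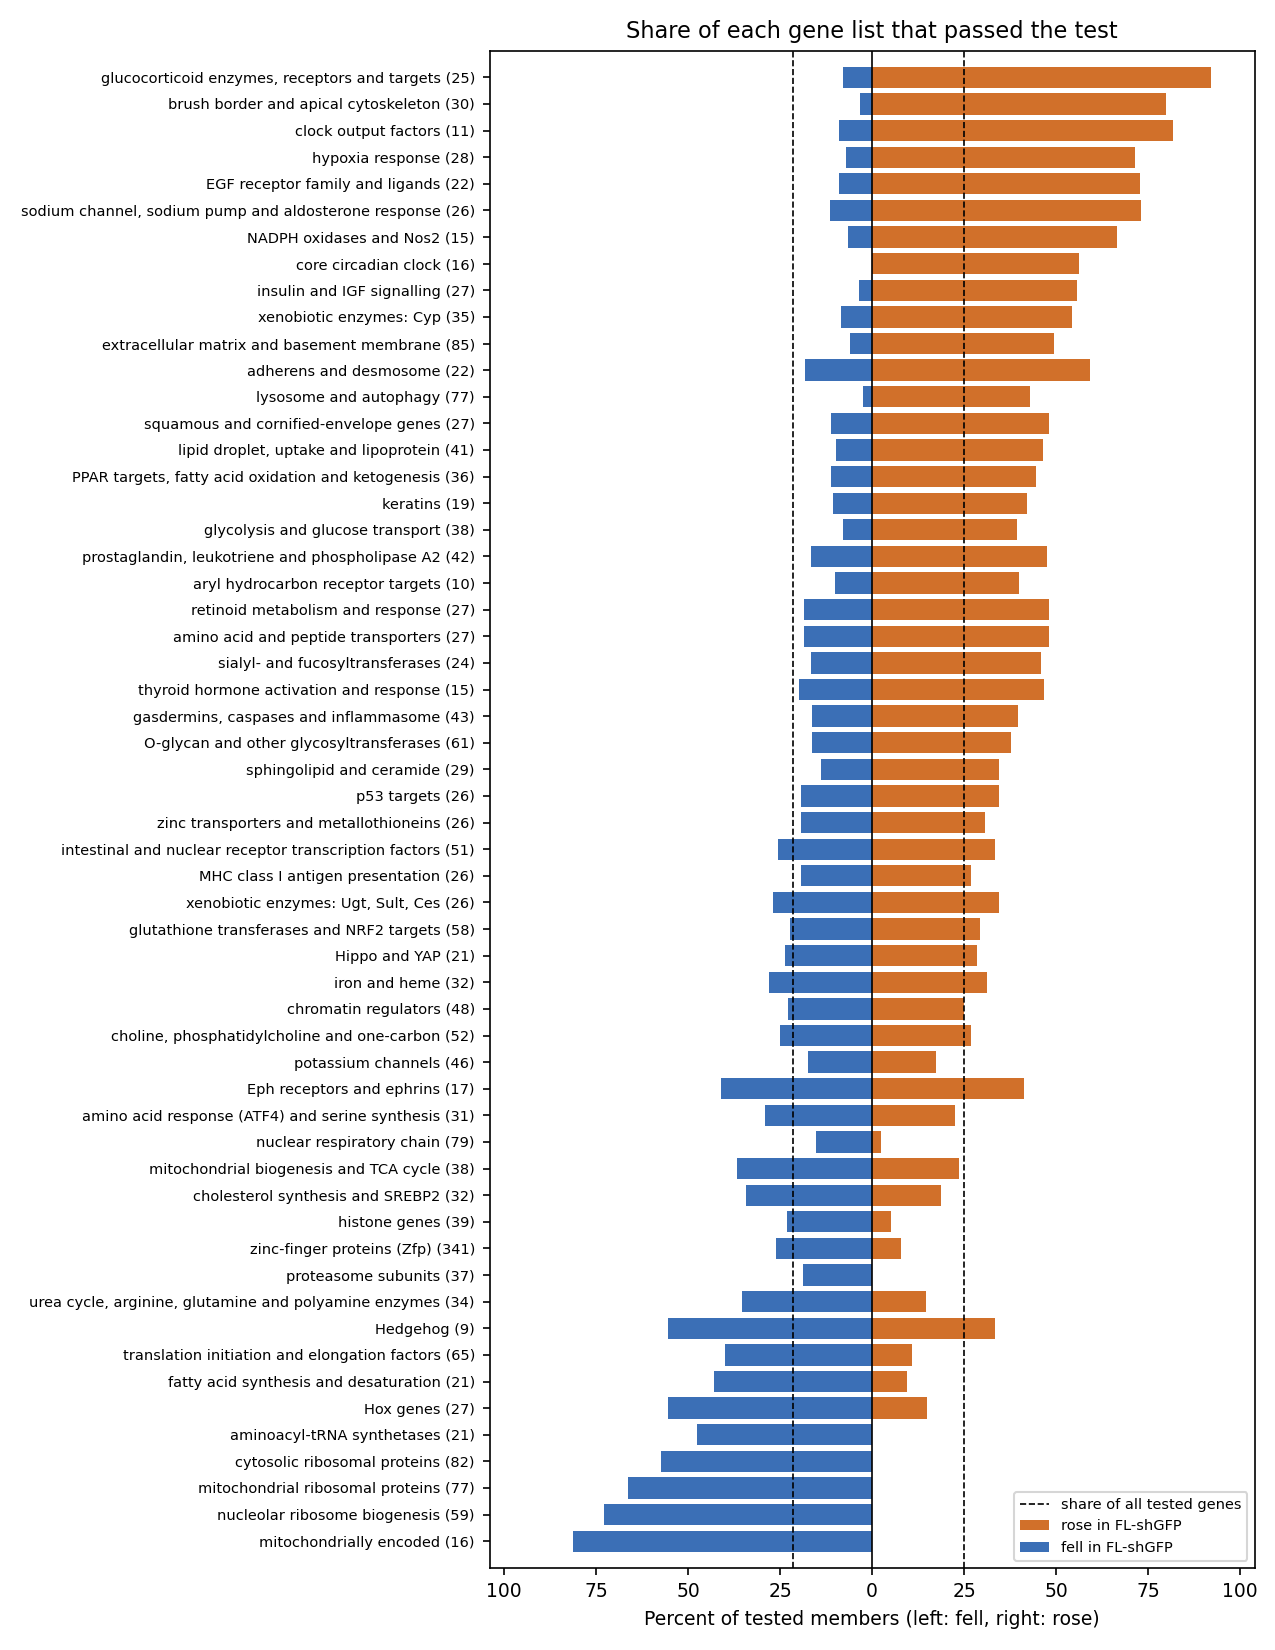
Percent of the tested members of each gene list (number in brackets) that rose (orange, right) or fell (blue, left) in FL-shGFP at an edgeR adjusted p below 0.05, with dashed lines at the shares of all tested genes, 25.1% and 21.6%. Glucocorticoid, brush border and clock output genes reach farthest to the right, and mitochondrially encoded and nucleolar genes farthest to the left.

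In CPM, which are relative to library size, the largest losses among genes that passed were of mitochondrial transcripts. The largest gains were mostly of secreted or apical proteins of the luminal surface. Mitochondrially encoded genes together fell by 179097 CPM, which was 64.8% of all losses. The 15 genes with the largest gains among those that rose took up 32.3% of all gains. Dmbt1, a scavenger receptor that binds bacteria, went from 7683 ± 1066 to 18936 ± 3031 CPM (1.30 ± 0.19, edgeR adjusted p = 0.000113). Lypd8, which binds flagella, went from 3049 ± 908 to 16657 ± 6618 CPM, and Zg16, a lectin of the mucus gel, from 818 ± 254 to 8844 ± 4336 CPM. Clca1, a secreted protease that processes the mucus gel, measured 694, 729.5, 346, 314 and 111 CPM in NL-shGFP and 6567, 8874, 1164, 8227 and 709.7 CPM in FL-shGFP. Its groups overlapped, because FL-shGFP replicate 5 lay below NL-shGFP replicate 2 (3.54 ± 0.75, edgeR adjusted p = 0.00183). The mucus protein Fcgbp (2.85 ± 0.50), the membrane mucin Muc13 (2.04 ± 0.26), the adhesion molecule Ceacam1 (1.33 ± 0.23), the antimicrobial lectin Reg3b (1.26 ± 0.29), the iron store Fth1 (1.09 ± 0.24) and the lectin Lgals4 (0.67 ± 0.17) were also among the 15. Among genes that fell outside the mitochondrial genome, the largest losses of CPM were those of the elongation factor Eef1a1 and of the mucin-folding enzyme Agr2 (-1.01 ± 0.15), the chaperones Hspa8 (-1.17 ± 0.21) and Hsp90ab1 (-0.99 ± 0.25), the goblet cell peptide Spink4 (-1.11 ± 0.23) and the kallikrein Klk1 (-1.01 ± 0.23). The largest edgeR adjusted p among the genes of this paragraph was 0.0484, for Eef1a1 (-0.51 ± 0.20). It no longer passed without any 1 of the 5 NL-shGFP libraries or FL-shGFP replicates 1, 2 and 4, and its highest adjusted p over the edgeR, DESeq2 and limma alternatives was 0.144.

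Shares of changed genes differed by level and by kind of transcript. In the quintile of genes with the highest mean CPM, 36.5% rose and 19.6% fell, and in the middle quintile 19.8% rose and 30.9% fell. In the lowest quintile, 18.6% rose and 8.93% fell. The quintile of longest genes had a median log2 fold change of 0.11 and that of the shortest one of -0.12. Of 896 tested pseudogenes 57 rose and 153 fell, and of 871 long non-coding RNAs 161 rose and 130 fell. Of 111 tested antigen receptor V segments, 100 rose and 0 fell. A gene could pass the count filter through a single group, so a segment at or near 0 in NL-shGFP could not be called lower. The same limit bears on other genes near 0 in NL-shGFP. Of the 32939 genes in the table, 123 were at 0 in every NL-shGFP library and in no FL-shGFP library, 28 of them V segments. In 13 genes it was the other way round. FL-shGFP libraries held more counts, 46.6 M against 36.9 M on average, and fewer of them were mitochondrially encoded, 16.7% against 33.2%. More counts were thus left for other genes in FL-shGFP, and the part of depth in this difference was not tested. G6pc, the enzyme that releases free glucose from glucose 6-phosphate, was one of the 123, and was chosen for mention after its values were seen. It had 0 counts in all 5 NL-shGFP libraries and 90, 20, 283, 137 and 117 counts in FL-shGFP, 164-fold higher against a floor of 3 counts over the NL-shGFP group. Gapdh, a glycolytic enzyme with many pseudogene copies, was also chosen after its values were seen. It had 4476 counts in NL-shGFP replicate 2 and 215 to 530 counts in the other 9 libraries.

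Genes that handle choline and methyl groups changed in both directions. Of the choline, phosphatidylcholine and one-carbon list, 14 of 52 tested members rose and 13 fell (median 0.08), shares close to those of all genes, and 9 rose with the close NL-shGFP pairs summed. Chdh, the mitochondrial enzyme that oxidizes choline on its way to betaine, measured 84.3, 75.96, 71.9, 71.3 and 85.96 CPM in NL-shGFP and 47.4, 51.1, 46.96, 37.9 and 55.01 CPM in FL-shGFP. It fell without overlap (-0.71 ± 0.10, edgeR adjusted p = 0.000123). Dmgdh, which oxidizes the dimethylglycine left after betaine gives up a methyl group, measured 0.4797, 0.598, 0.785, 0.689 and 0.341 CPM in NL-shGFP and 9.74, 6.49, 3.93, 8.57 and 2.86 CPM in FL-shGFP. It rose without overlap (3.44 ± 0.43, edgeR adjusted p = 3.86e-05), as did Bhmt2, a homocysteine methyltransferase that does not use betaine, from 0.288 ± 0.0816 to 4.497 ± 3.14 CPM (3.95 ± 0.57, edgeR adjusted p = 0.000102). FL-shGFP replicates 3 and 5 held the lower Dmgdh values of their group.

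Slc44a4 and Gpcpd1 of the same list rose, and the named steps to phosphatidylcholine either fell or did not pass. Whether Slc44a4 carries choline in these cells was not tested. Slc44a4 (1.35 ± 0.24), a membrane carrier of the choline transporter-like family, went from 285 ± 39.4 to 727 ± 218 CPM, and Gpcpd1 (1.28 ± 0.14), which frees glycerophosphate and choline from glycerophosphocholine, from 25.002 ± 3.96 to 60.9 ± 7.77 CPM. Chka, the choline kinase that opens the phosphatidylcholine pathway, fell with overlapping groups (-0.42 ± 0.15, edgeR adjusted p = 0.0331), a call that was lost without NL-shGFP replicate 2, 3 or 5 or FL-shGFP replicate 1, 2 or 4 (highest adjusted p over the edgeR, DESeq2 and limma alternatives, 0.163). Pcyt1a, the rate-limiting step of that pathway, did not pass (0.25 ± 0.11, edgeR adjusted p = 0.0649), nor did Pemt, which makes phosphatidylcholine by methylation (0.08 ± 0.19, edgeR adjusted p = 0.758), nor Mat2a, which makes the methyl donor S-adenosylmethionine (0.47 ± 0.19, edgeR adjusted p = 0.0563). Mthfd2, the mitochondrial folate enzyme of dividing cells, fell from 19.6 ± 3.46 to 9.71 ± 1.43 CPM (-1.02 ± 0.19, edgeR adjusted p = 0.000791).

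Amino acid uptake genes rose more often than they fell. Of the amino acid and peptide transporter list, 13 of 27 tested members rose and 5 fell (median 0.23). Slc15a1 encodes PEPT1, the apical carrier of di- and tripeptides. It measured 8.095, 8.95, 12.3, 10.8 and 1.59 CPM in NL-shGFP and 174, 173, 33.3, 158 and 18.8 CPM in FL-shGFP, with every FL-shGFP library above every NL-shGFP library (3.74 ± 0.66, edgeR adjusted p = 0.0005101). Slc6a14, an apical carrier of neutral and basic amino acids, measured 191, 175, 146, 155 and 120.1 CPM in NL-shGFP and 790.1, 955, 627, 983 and 429.9 CPM in FL-shGFP, again without overlap (2.27 ± 0.34, edgeR adjusted p = 0.000158). Both subunits of the cystine and basic amino acid carrier, Slc7a9 (4.50 ± 0.41) and Slc3a1 (2.46 ± 0.30), rose, and so did the proline carrier Slc6a20a (2.94 ± 0.27) and the branched-chain carrier Slc43a2 (1.29 ± 0.16), each with an edgeR adjusted p at or below 3.51e-05. The glutamine and alanine carrier Slc38a1 did not pass (0.06 ± 0.12, edgeR adjusted p = 0.7003).

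Phgdh of serine synthesis and 10 of the enzymes that load transfer RNA were lower. Phgdh, the first enzyme of serine synthesis from glucose, measured 27.9, 31.1, 27.2, 28.1 and 22.3 CPM in NL-shGFP and 5.02, 8.84, 10.7, 1.96 and 15.4 CPM in FL-shGFP, without overlap (-1.70 ± 0.54, edgeR adjusted p = 0.0196). FL-shGFP replicate 4 was the lowest and replicate 5 the nearest to NL-shGFP, and the call was lost with the close NL-shGFP pairs summed and with no count filter (highest adjusted p over the edgeR, DESeq2 and limma alternatives, 0.0606). Psat1, the next enzyme of that path, was also without overlap but did not pass (-0.88 ± 0.38, edgeR adjusted p = 0.0669), and neither did the cystine carrier Slc7a11 (0.37 ± 0.43, edgeR adjusted p = 0.5096). Of the ATF4 and serine list as a whole, 7 of 31 tested members rose and 9 fell (median -0.13), not far from the shares of all genes. The stress-induced mTOR inhibitor Ddit4 (1.21 ± 0.14), the lipoprotein receptor Vldlr (1.87 ± 0.22) and the stress hormone Gdf15 (1.72 ± 0.38) rose, with edgeR adjusted p at or below 0.00198. Of 21 cytosolic aminoacyl-tRNA synthetases, 0 rose and 10 fell (median -0.40), among them Farsb (-0.88 ± 0.18), Tars (-0.66 ± 0.10), Yars (-0.56 ± 0.09) and Dars (-0.55 ± 0.11), with edgeR adjusted p at or below 0.00116. With totals alone as the scaling, 6 of the 21 fell and 4 of the 31 ATF4 and serine genes did.

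Of the urea cycle, arginine and polyamine list, 5 of 34 tested members rose and 12 fell (median -0.21). Both mitochondrial enzymes of the urea cycle were among the falls. Otc, ornithine transcarbamylase, measured 22.4, 18.9, 20.3, 19.3 and 16.6 CPM in NL-shGFP and 5.796, 2.62, 4.37, 2.14 and 6.33 CPM in FL-shGFP, all 5 FL-shGFP values lying below every NL-shGFP value (-2.19 ± 0.30, edgeR adjusted p = 7.93e-05). The carbamoyl phosphate synthetase Cps1 went from 26.01 ± 8.06 to 0.913 ± 0.671 CPM (-4.81 ± 0.75, edgeR adjusted p = 0.000202) and the argininosuccinate synthase Ass1 (-1.33 ± 0.25) from 20.3 ± 3.56 to 8.06 ± 1.33 CPM. Arg2, the mitochondrial arginase, rose with overlapping groups (1.56 ± 0.44, edgeR adjusted p = 0.00967). Odc1 (-0.94 ± 0.21), the rate-limiting enzyme of polyamine synthesis, and Pycr1 (-1.66 ± 0.14), which makes proline, fell with edgeR adjusted p of 0.00197 and 2.37e-06. Glul, glutamine synthetase, did not pass (0.28 ± 0.21, edgeR adjusted p = 0.283).

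Transcripts of the mitochondrial genome and of the mitochondrial ribosome fell, and few nuclear subunits of the respiratory chain did. The mitochondrially encoded share of counts was 33.2 ± 3.98% in NL-shGFP and 16.7 ± 3.32% in FL-shGFP, a difference of -16.5 percentage points (n = 5, two-sided exact permutation p = 0.00794, the smallest that 5 against 5 allows, adjusted over 4 library measures 0.0159). Of 16 tested mitochondrially encoded genes 0 rose and 13 fell (median -1.07). The cytochrome oxidase subunit mt-Co1, went from 176110.0 ± 29254 to 88397 ± 17923 CPM (-0.99 ± 0.24, edgeR adjusted p = 0.00357), and the complex I subunit mt-Nd4 from 16479 ± 2855 to 7118 ± 1811 CPM (-1.21 ± 0.23, edgeR adjusted p = 0.000819). The mitochondrial ribosomal RNAs did not pass (mt-Rnr1 -0.58 ± 0.32, edgeR adjusted p = 0.144, and mt-Rnr2 -0.37 ± 0.35, edgeR adjusted p = 0.403). Libraries were enriched for mRNA, so ribosomal RNA levels depend on how much of it the enrichment left.

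Of 77 mitochondrial ribosomal protein genes, which are nuclear, 0 rose and 51 fell (median -0.46), for example Mrpl34 (-0.94 ± 0.13), Mrpl49 (-0.88 ± 0.14) and Mrps15 (-0.67 ± 0.12), with edgeR adjusted p at or below 0.000403. Twnk (-1.63 ± 0.22), the helicase that unwinds mitochondrial DNA, went from 27.6 ± 3.81 to 8.901 ± 2.93 CPM. Of 79 nuclear genes of the respiratory chain, 2 rose and 12 fell (median -0.11), and their summed level overlapped between the groups, 14779 ± 899 CPM in NL-shGFP and 14240.1 ± 1996 CPM in FL-shGFP. Ndufa4 (-0.69 ± 0.18), Ndufb5 (-0.38 ± 0.09) and Ndufa5 (-0.44 ± 0.11) were among the falls, and the abundant ATP synthase subunits Atp5b (-0.20 ± 0.13, edgeR adjusted p = 0.217) and Atp5a1 (-0.08 ± 0.13, edgeR adjusted p = 0.645) did not pass. Of mitochondrial biogenesis and TCA cycle genes, 9 of 38 tested members rose and 14 fell (median -0.19). Pdk4, the kinase that keeps pyruvate out of the TCA cycle, measured 4.89, 5.66, 4.19, 4.37 and 1.71 CPM in NL-shGFP and 28.3, 35.1, 93.8, 33.7 and 50.002 CPM in FL-shGFP, without overlap (3.53 ± 0.42, edgeR adjusted p = 3.03e-05). The coactivator Ppargc1a (1.02 ± 0.25) and the citrate synthase Cs (0.70 ± 0.12) rose, with edgeR adjusted p of 0.00431 and 0.000329. With totals alone, 31 mitochondrial ribosomal protein genes, 4 respiratory chain genes and 8 TCA and biogenesis genes fell, and with the log2(FPKM + 1) model 4 respiratory chain genes did. The number of TCA and biogenesis genes that rose was 5 without any 1 of NL-shGFP replicates 3, 4 and 5 or FL-shGFP replicates 1 and 2.

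**Figure D2:**
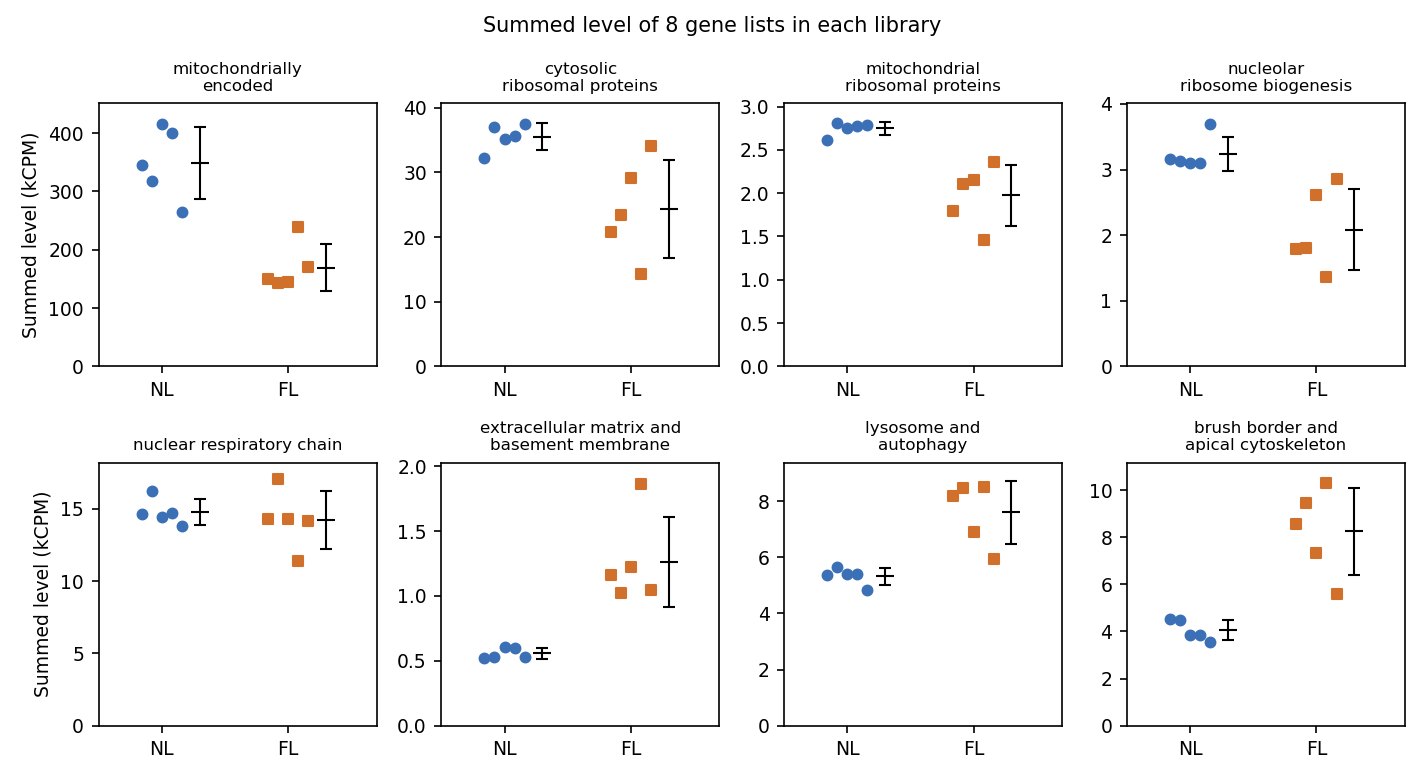
Summed CPM (axis in kCPM) of the tested members of 8 gene lists in each library of NL-shGFP (NL, circles) and FL-shGFP (FL, squares), with the mean ± SD beside the points. The mitochondrially encoded, mitochondrial ribosomal and nucleolar sums are lower in every FL-shGFP library, the nuclear respiratory chain and cytosolic ribosomal sums overlap, and the matrix, lysosome and brush border sums are higher in every FL-shGFP library.

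Ribosome genes fell and none of the cytosolic ribosomal or nucleolar lists rose. Of 59 nucleolar genes, which make and assemble ribosomal RNA, 0 rose and 43 fell (median -0.69). Fbl, the fibrillarin that methylates ribosomal RNA, measured 92.6, 96.7, 87.8, 84.6 and 98.3 CPM in NL-shGFP and 33.7, 39.1, 63.4, 21.5 and 74.3 CPM in FL-shGFP, without overlap (-0.99 ± 0.30, edgeR adjusted p = 0.0155), with FL-shGFP replicates 3 and 5 nearest to NL-shGFP. With totals alone Fbl did not pass (edgeR adjusted p = 0.0507). The polymerase I subunit Polr1b (-1.22 ± 0.25), the small ribonucleoprotein Gar1 (-1.36 ± 0.27), and the assembly factors Utp20 (-1.18 ± 0.19) and Rrs1 (-1.17 ± 0.19) fell with edgeR adjusted p at or below 0.00121, and the abundant nucleophosmin Npm1 did not pass (-0.67 ± 0.30, edgeR adjusted p = 0.0781). Of 82 cytosolic ribosomal protein genes 0 rose and 47 fell (median -0.54), and 0 rose under each alternative tried. Summed over the list, their level was 32138, 36977, 35075, 35689.9 and 37449 CPM in NL-shGFP and 20747, 23383, 29149, 14346 and 34022 CPM in FL-shGFP. FL-shGFP replicate 5 lay within the NL-shGFP range and replicate 4 was the lowest. Rplp2 (-0.98 ± 0.22) and Rps21 (-0.78 ± 0.20) fell, with edgeR adjusted p of 0.00239 and 0.00507, and the abundant Rplp0 did not pass (-0.56 ± 0.23, edgeR adjusted p = 0.0549).

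The ribosomal protein count depended on the library. It was 22, 25 and 26 without FL-shGFP replicates 1, 2 and 4, and 72 without FL-shGFP replicate 5. It was 31 without NL-shGFP replicate 5, and between 32 and 57 without any 1 of the other 5 libraries. With totals alone it was 9, with the replicates 1 and 2, and 3 and 4, of NL-shGFP summed it was 18, and with a replicate block 29. Ribosomal protein genes have many pseudogene copies that can take their reads. The nucleolar count was 25 with totals alone. Of 65 translation initiation and elongation factors 7 rose and 26 fell, and 10 fell with totals alone. Eif2s2 (1.87 ± 0.28), a subunit of the factor that brings in the initiator tRNA, was an exception and went up from 215 ± 22.4 to 787 ± 333 CPM, as did Eif4ebp3 (1.27 ± 0.21), which holds back cap-dependent translation. Of 37 proteasome subunits 0 rose and 7 fell (median -0.11), with Psma4 (-0.55 ± 0.10), Psmb10 (-0.64 ± 0.17) and Psmb9 (-1.07 ± 0.33), and 3 fell without FL-shGFP replicate 4. Psmb9 did not pass with the close NL-shGFP pairs summed (edgeR adjusted p = 0.07205).

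Clock repressors and D-box factors were higher, and the activators Arntl and Clock did not pass. The circadian clock is a loop in which BMAL1 (gene Arntl) and CLOCK bind E-box letters and switch on Per, Cry and Nr1d genes, whose products then switch the loop off, and D-box factors such as DBP and TEF pass the rhythm on. Of 16 core clock genes 9 rose and 0 fell (median 0.83), and of 11 output factors 9 rose and 1 fell. The upstream windows of 3 clock genes that rose are shown because they hold E-box letters. Ciart, a repressor in the loop, rose (1.99 ± 0.34, edgeR adjusted p = 0.000359), and Per1 and Tef are described next. The sequences are RefSeq's on GRCm38.p6, 250 bases that end at the base before the annotated start, written 5′ to 3′ on the gene's strand. Capitals mark E-boxes (CACGTG) and, in Per1, also a D-box (TTATGNAA).
Per1, chr11:69098699-69098948, plus strand: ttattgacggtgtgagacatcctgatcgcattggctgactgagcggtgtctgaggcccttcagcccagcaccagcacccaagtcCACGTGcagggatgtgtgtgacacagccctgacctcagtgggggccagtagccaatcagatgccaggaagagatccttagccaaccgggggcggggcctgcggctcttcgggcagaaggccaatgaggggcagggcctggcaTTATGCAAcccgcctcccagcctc
Ciart, chr3:95882229-95882478, minus strand: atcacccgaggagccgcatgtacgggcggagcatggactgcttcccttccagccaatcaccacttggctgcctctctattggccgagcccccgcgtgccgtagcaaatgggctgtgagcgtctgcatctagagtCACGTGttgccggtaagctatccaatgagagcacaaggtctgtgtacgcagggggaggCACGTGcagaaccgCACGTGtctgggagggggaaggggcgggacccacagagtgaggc
Tef, chr15:81802423-81802672, plus strand: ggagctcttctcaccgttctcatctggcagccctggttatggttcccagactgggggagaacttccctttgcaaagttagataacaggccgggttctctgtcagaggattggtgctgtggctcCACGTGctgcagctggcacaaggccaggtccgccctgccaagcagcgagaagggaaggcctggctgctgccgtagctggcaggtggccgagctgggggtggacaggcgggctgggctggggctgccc
On both strands, an E-box was found in the windows of 3 of the 13 core clock genes and 2 of the 8 output factors with a promoter in the table, and in 6.02% of all 32851 windows. A D-box was found in 2 of the 13 and 0 of the 8, and in 3.07% of all windows. A gene can have several windows, and among the 11855 tested genes with any, 9.35% had an E-box in at least 1 and 2.56% a D-box. In the glucocorticoid list below, 4 of 21 genes with a promoter held an E-box, among them Per1, which is in both lists. A match of letters is a description of the sequence.

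Nr1d1, which encodes the repressor REV-ERB alpha, measured 5.697, 6.61, 5.23, 4.16 and 3.64 CPM in NL-shGFP and 37.6, 40.3, 41.8, 44.03 and 23.2 CPM in FL-shGFP, without overlap (2.88 ± 0.29, edgeR adjusted p = 1.03e-05). Its relative Nr1d2 (1.56 ± 0.12) rose as well, from 16.02 ± 0.9605 to 47.4 ± 5.403 CPM. Per1 measured 9.29, 9.199, 12.7, 11.04 and 16.98 CPM in NL-shGFP and 35.6, 32.2, 49.2, 44.8 and 39.7 CPM in FL-shGFP, without overlap (1.77 ± 0.21, edgeR adjusted p = 2.71e-05), and Per3 (1.55 ± 0.18) and the repressor Cry2 (2.14 ± 0.19) rose with edgeR adjusted p of 2.14e-05 and 4.06e-06. Tef, the D-box factor, measured 5.397, 5.31, 6.97, 7.97 and 8.84 CPM in NL-shGFP and 38.3, 46.6, 43.4, 52.6 and 33.3 CPM in FL-shGFP, without overlap (2.63 ± 0.19, edgeR adjusted p = 1.03e-06), and its relative Dbp went from 0.643 ± 0.211 to 4.29 ± 1.49 CPM (2.73 ± 0.34, edgeR adjusted p = 3.51e-05). Arntl went from 31.5 ± 3.26 to 31.5 ± 6.63 CPM and did not pass (-0.00 ± 0.15, edgeR adjusted p = 0.992), and neither Clock (-0.04 ± 0.11, edgeR adjusted p = 0.789) nor Per2 (-0.03 ± 0.30, edgeR adjusted p = 0.943) passed. Nfil3, the repressor at D-boxes, rose with overlapping groups (0.56 ± 0.18, edgeR adjusted p = 0.0172), and Wee1 (-1.29 ± 0.24), a mitosis kinase under clock control, fell from 15.9 ± 2.37 to 6.49 ± 2.15 CPM. The labels give no harvest time, so hour of harvest and group cannot be told apart for these genes.

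Nearly every glucocorticoid gene rose. Glucocorticoids act through the receptor Nr3c1, which switches on feedback and metabolic genes at palindromic DNA elements, and the colon can activate or inactivate the hormone through the Hsd11b enzymes. Of 25 tested genes 23 rose and 2 fell (median 1.21), against 25.1% and 21.6% of all genes. The list was drawn up with results of these samples known, so its direction is not independent evidence. Sgk1, the kinase that keeps sodium channels at the membrane, measured 44.3, 43.2, 41.3, 40.4 and 41.3 CPM in NL-shGFP and 432, 323, 566, 748 and 368 CPM in FL-shGFP. FL-shGFP replicate 2, the lowest of its group, was still far above every NL-shGFP library (3.53 ± 0.34, edgeR adjusted p = 9.53e-06). Fkbp5, the co-chaperone that feeds back on the receptor, measured 149, 156, 111, 117 and 126 CPM in NL-shGFP and 447, 348, 649, 525 and 439.8 CPM in FL-shGFP, without overlap (1.87 ± 0.19, edgeR adjusted p = 1.03e-05). Zbtb16, a transcription factor used as a marker of glucocorticoid exposure, went from 0.223 ± 0.101 to 16.1 ± 5.77 CPM (6.16 ± 0.38, edgeR adjusted p = 2.68e-07), and Tsc22d3, which encodes the anti-inflammatory GILZ, from 28.4 ± 7.297 to 55.9 ± 12.5 CPM (0.98 ± 0.20, edgeR adjusted p = 0.001405). Mt1, a metallothionein under metal and glucocorticoid control, measured 47.8, 55.3, 60.7, 64.5 and 40.4 CPM in NL-shGFP and 336, 429, 462, 786 and 382 CPM in FL-shGFP (3.16 ± 0.32, edgeR adjusted p = 1.22e-05).

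The upstream windows of Sgk1 and Mt1 are shown because they hold the glucocorticoid response element, the half-sites GNACA and TGTNC held 3 bases apart, in capitals together with an E-box in Sgk1. On both strands, they were the 2 of 21 genes of this list with a promoter in the table that held it, and it was in 0.387% of all windows. Among the 11855 tested genes with any window, 0.363% had it in at least 1.
Sgk1, chr10:21993640-21993889, plus strand: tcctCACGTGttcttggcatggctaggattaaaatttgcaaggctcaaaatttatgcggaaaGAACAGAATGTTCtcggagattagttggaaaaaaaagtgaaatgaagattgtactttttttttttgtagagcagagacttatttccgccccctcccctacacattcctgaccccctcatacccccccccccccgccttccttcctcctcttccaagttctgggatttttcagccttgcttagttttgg
Mt1, chr8:94178839-94179088, plus strand: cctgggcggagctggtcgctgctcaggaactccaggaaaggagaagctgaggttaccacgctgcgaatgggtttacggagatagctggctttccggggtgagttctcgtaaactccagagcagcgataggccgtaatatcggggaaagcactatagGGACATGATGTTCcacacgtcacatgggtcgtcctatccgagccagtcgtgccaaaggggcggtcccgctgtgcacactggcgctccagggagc
Nr3c1 rose slightly (0.32 ± 0.10, edgeR adjusted p = 0.0207) but did not pass without NL-shGFP replicate 3 (highest adjusted p over the edgeR, DESeq2 and limma alternatives, 0.0695). Hsd11b1, which activates the hormone, went from 0.3803 ± 0.217 to 1.75 ± 0.849 CPM (2.18 ± 0.49, edgeR adjusted p = 0.00225), and Hsd11b2, which inactivates it, from 193 ± 30.1 to 279.8 ± 38.3 CPM (0.54 ± 0.18, edgeR adjusted p = 0.0253). The Hsd11b2 call was lost without NL-shGFP replicate 1, 3 or 4 or FL-shGFP replicate 2 (highest adjusted p over the edgeR, DESeq2 and limma alternatives, 0.126). The steroid synthesis genes Cyp11a1, Cyp17a1 and Cyp21a1 had at most 12, 2 and 6 counts in any of the 10 libraries, and Cyp11b1 at most 2 counts in NL-shGFP and 7 to 27 in FL-shGFP. The sulfotransferase Sult1a1 was 1 of the 2 falls (-1.42 ± 0.31, edgeR adjusted p = 0.00215).

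**Figure D3:**
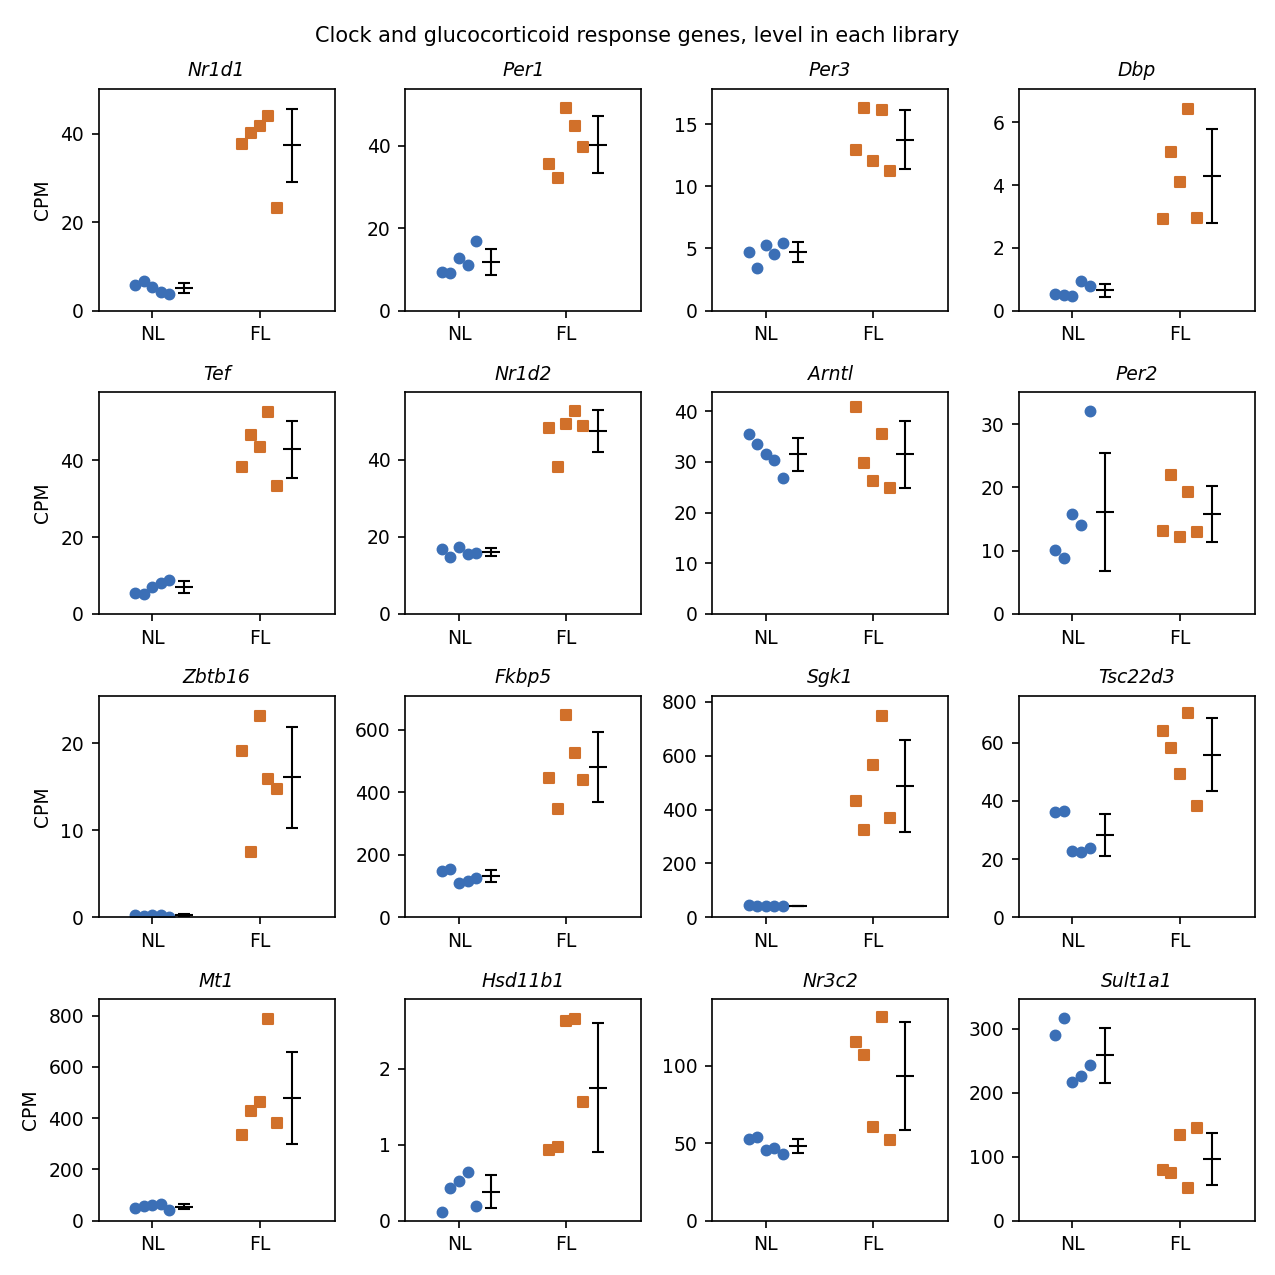
CPM of 8 clock genes (upper 2 rows) and 8 glucocorticoid and mineralocorticoid genes (lower 2 rows) in each library of NL-shGFP (NL, circles) and FL-shGFP (FL, squares), with the mean ± SD beside the points. All but Arntl and Per2 differ between the groups by the edgeR test, and Sult1a1 is the 1 gene shown that is lower in FL-shGFP.

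Genes of electrogenic sodium uptake, the aldosterone-controlled task of the distal colon, rose with Sgk1. Of 26 tested genes of this list 19 rose and 3 fell, and 12 rose with the close NL-shGFP pairs summed. The sodium channel subunit Scnn1g (4.29 ± 0.43) and the pump regulator Fxyd4 (6.78 ± 0.60) rose from near 0 (Fxyd4 from 0.293 ± 0.179 to 32.1 ± 24.9 CPM), and the mineralocorticoid receptor Nr3c2 went from 48.4 ± 4.59 to 93.2 ± 35.02 CPM (0.95 ± 0.26, edgeR adjusted p = 0.00877) with overlapping groups, FL-shGFP replicates 3 and 5 being the lower ones. Fxyd3 (-1.14 ± 0.15), another pump regulator, fell.

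Thyroid hormone and retinoid genes changed in both directions. Dio2, which turns thyroxine into the active hormone, rose from 0.0872 ± 0.0601 to 9.06 ± 10.8 CPM (6.61 ± 0.88, edgeR adjusted p = 6.87e-05), and Hr (-2.33 ± 0.39), a corepressor and target of the thyroid receptor, fell from 20.9 ± 3.15 to 4.13 ± 2.68 CPM, while Dio1 (0.05 ± 0.43, edgeR adjusted p = 0.933) and the receptor Thrb (-0.14 ± 0.13, edgeR adjusted p = 0.384) did not pass. Of 15 genes of this list 7 rose and 3 fell. Of the retinoid list, 13 of 27 tested members rose and 5 fell (median 0.38). Rdh16, a retinol dehydrogenase, measured 16.9, 18.3, 14.9, 18.3 and 6.77 CPM in NL-shGFP and 255, 232, 122, 227 and 69.5 CPM in FL-shGFP, without overlap (3.59 ± 0.41, edgeR adjusted p = 2.73e-05). The retinaldehyde dehydrogenases Aldh1a3 (3.14 ± 0.36) and Aldh1a2 (1.93 ± 0.48), the retinol-binding Rbp2 (3.04 ± 0.44) and the carotene cleavage enzyme Bco1 (1.93 ± 0.28) rose as well, with edgeR adjusted p at or below 0.00459. Isx, the repressor that retinoic acid induces, did not pass (0.18 ± 0.13, edgeR adjusted p = 0.253).

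Of 28 hypoxia response genes 20 rose and 2 fell. Hif1a, the oxygen-regulated transcription factor, measured 65.4, 58.5, 64.3, 64.5 and 48.9 CPM in NL-shGFP and 302, 237, 288, 301 and 169 CPM in FL-shGFP, without overlap (2.11 ± 0.18, edgeR adjusted p = 2.37e-06). Angptl4, a lipase inhibitor that hypoxia, fasting and PPARs induce, went from 0.297 ± 0.104 to 26.2 ± 17.02 CPM (6.46 ± 0.50, edgeR adjusted p = 1.68e-06), and Vegfa (0.89 ± 0.21), the vessel growth factor, rose with an edgeR adjusted p of 0.00359. The marker Ndrg1 (0.43 ± 0.19, edgeR adjusted p = 0.0782) and the carbonic anhydrase Car12 (-0.25 ± 0.21, edgeR adjusted p = 0.347) did not pass. The count of rises was 13 without FL-shGFP replicate 4 and 11 with the close NL-shGFP pairs summed.

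Of glycolysis and glucose transport genes, 15 of 38 tested members rose and 3 fell (median 0.18). Slc2a1, the glucose carrier GLUT1, measured 98.8, 101, 79.4, 81.5 and 53.5 CPM in NL-shGFP and 284, 272, 212, 349.6 and 135 CPM in FL-shGFP, without overlap (1.60 ± 0.23, edgeR adjusted p = 0.000121). Hk2, the hexokinase that traps glucose in the cell, measured 292, 279, 238, 218 and 195 CPM in NL-shGFP and 874, 729.9, 516, 705 and 318 CPM in FL-shGFP, also without overlap (1.36 ± 0.22, edgeR adjusted p = 0.000261). The apical sodium-glucose carrier Slc5a1 (0.93 ± 0.12) rose with an edgeR adjusted p of 3.79e-05. Pck1, the first step of gluconeogenesis, did not pass (-0.06 ± 0.27, edgeR adjusted p = 0.876), and neither did the abundant glycolytic gene Tpi1 (0.03 ± 0.11, edgeR adjusted p = 0.828). Of the insulin and IGF list, 15 of 27 tested members rose and 1 fell (median 0.35). The insulin receptor substrates Irs1 (4.14 ± 0.56) and Irs2 (1.34 ± 0.16) rose (Irs2 from 20.8 ± 3.46 to 52.7 ± 8.13 CPM), as did the binding proteins Igfbp3 (4.35 ± 0.62) and Igfbp7 (4.33 ± 0.69), which stromal cells make, each with an edgeR adjusted p at or below 0.000237. Akt1 (-0.00 ± 0.12, edgeR adjusted p = 0.986) and Igf1r (0.15 ± 0.23, edgeR adjusted p = 0.599) did not pass.

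Lipid genes changed in both directions. Of lipid droplet, uptake and lipoprotein genes, 19 of 41 tested members rose and 4 fell (median 0.38). Apoe, a carrier of lipoprotein lipid, measured 19.5, 20.7, 40.1, 40.9 and 33.5 CPM in NL-shGFP and 592, 339, 245, 703 and 152 CPM in FL-shGFP, without overlap (3.71 ± 0.53, edgeR adjusted p = 0.000118). Mttp, which loads triglyceride onto apolipoprotein B, measured 3.48, 3.76, 2.45, 2.41 and 1.56 CPM in NL-shGFP and 26.96, 29.6, 17.9, 35.4 and 10.96 CPM in FL-shGFP, without overlap (3.14 ± 0.43, edgeR adjusted p = 8.27e-05). Dgat2 (1.76 ± 0.23), Cidec (2.76 ± 0.32) and Plin2 (1.04 ± 0.24), which make and coat lipid droplets, rose with edgeR adjusted p at or below 0.00269, and the fatty acid binding protein Fabp2 (-1.02 ± 0.21) fell from 198 ± 72.7 to 97.5 ± 10.9 CPM. Of PPAR and fatty acid oxidation genes, 16 of 36 tested members rose and 4 fell (median 0.23). The mitochondrial dehydrogenase Acadl (1.33 ± 0.15), the pantetheinase Vnn1 (3.30 ± 0.35) and the liver and gut factor Creb3l3 (3.91 ± 0.45) rose, with edgeR adjusted p at or below 2.73e-05. The fatty acid carrier Cd36 did not pass (0.38 ± 0.67, edgeR adjusted p = 0.659).

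Of fatty acid synthesis and desaturation genes, 2 of 21 tested members rose and 9 fell (median -0.31). Fasn, the synthase, measured 189, 185, 149.8, 154 and 174 CPM in NL-shGFP and 89.2, 109, 103, 76.7 and 116 CPM in FL-shGFP, without overlap (-0.78 ± 0.14, edgeR adjusted p = 0.000436), and Acly (-0.68 ± 0.10), which supplies its acetyl-CoA, fell too. Of cholesterol genes, 6 of 32 tested members rose and 11 fell (median -0.16). The sterol exporters Abcg5 (3.59 ± 0.40) and Abcg8 (3.40 ± 0.41) and the efflux pump Abca1 (1.57 ± 0.26) rose, targets of the oxysterol receptor LXR, with edgeR adjusted p at or below 0.000264. Srebf2, the transcription factor of sterol synthesis, did not pass (0.14 ± 0.08, edgeR adjusted p = 0.176). Of sphingolipid genes, 10 of 29 tested members rose and 4 fell (median 0.10), with the first enzyme subunit Sptlc2 (1.04 ± 0.12) and the ceramide synthase Cers4 (1.33 ± 0.15) up and the ceramidase Acer1 (-1.74 ± 0.23) down.

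**Figure D4:**
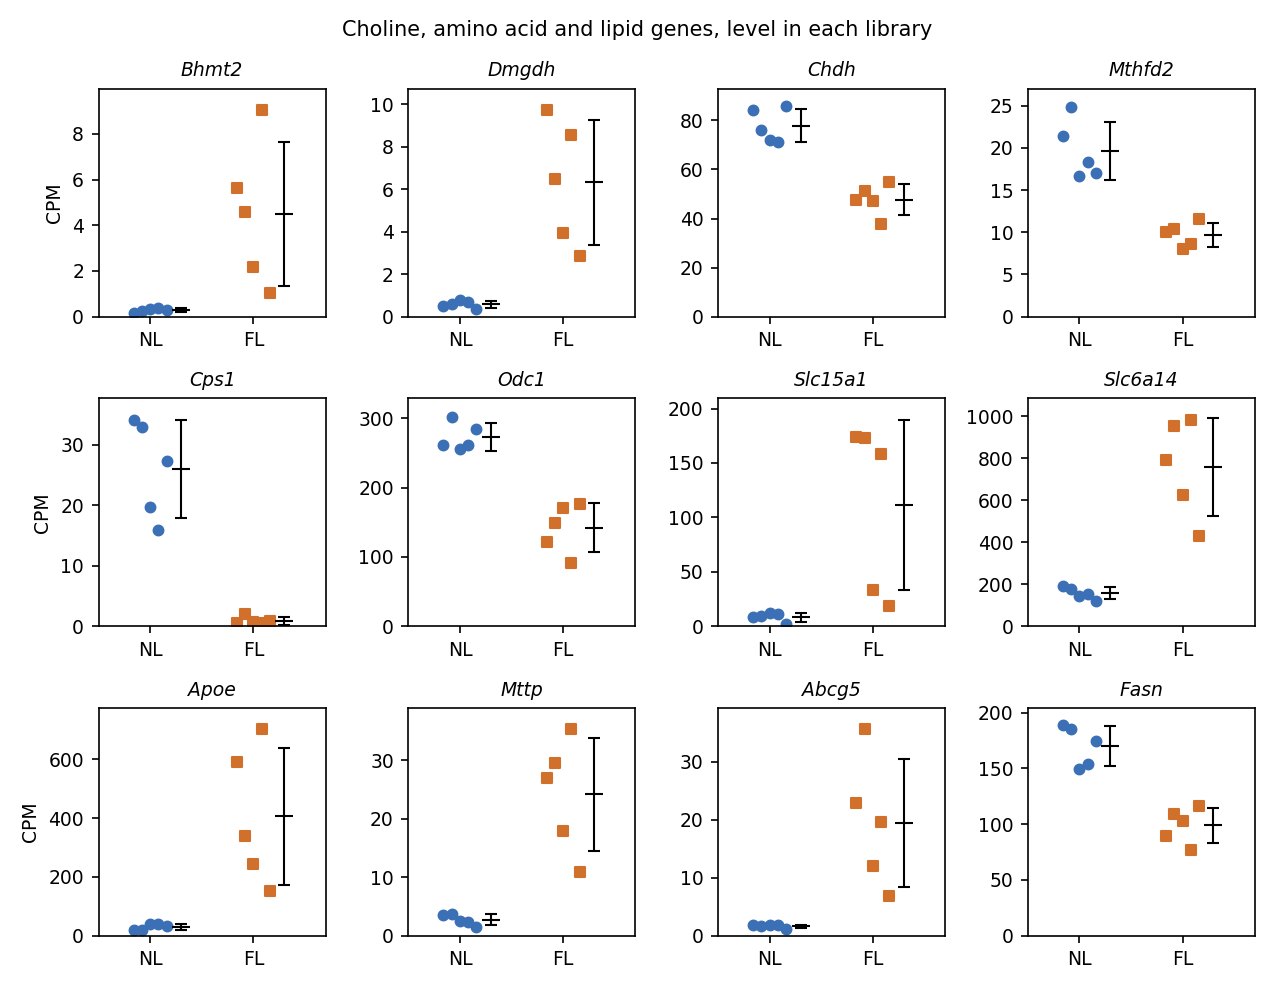
CPM of 12 choline, amino acid and lipid genes in each library of NL-shGFP (NL, circles) and FL-shGFP (FL, squares), with the mean ± SD beside the points. Chdh, Mthfd2, Cps1, Odc1 and Fasn are lower in every FL-shGFP library and the other 7 genes higher.

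Enzymes that handle foreign compounds changed by subfamily. Of Cyp genes, 19 of 35 tested members rose and 3 fell (median 0.93). All 6 tested Cyp2d genes rose (median 3.44), for example Cyp2d9 (4.78 ± 0.54) and Cyp2d10 (3.99 ± 0.51), which are near-identical copies and may share reads. Cyp2c55, the most abundant member that did not pass, measured 1079, 1129, 344, 338 and 231 CPM in NL-shGFP and 182, 373, 336, 379 and 214 CPM in FL-shGFP (-1.07 ± 0.57, edgeR adjusted p = 0.136), with NL-shGFP replicates 1 and 2 the high ones. Of 7 tested Ces2 carboxylesterases 5 rose and 0 fell, and all 4 Ces1 genes fell (median -1.71). Ugt1a1 (1.72 ± 0.30), which conjugates bilirubin, rose from 6.09 ± 1.34 to 20.1 ± 8.82 CPM with Sult2b1 (1.69 ± 0.22). The nuclear receptor Nr1i2 (1.02 ± 0.15), which senses bile acids and drugs, rose.

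Of glutathione and NRF2 genes, 17 of 58 tested members rose and 13 fell (median 0.04), near the shares of all genes. Without FL-shGFP replicate 1, 8 fell. Srxn1 (1.32 ± 0.17), Gsta1 (2.68 ± 0.25) and Hmox1 (1.34 ± 0.26) rose and Gstm2 (-1.04 ± 0.10) fell, with edgeR adjusted p at or below 0.000892, but the standard NRF2 target Nqo1 (-0.41 ± 0.32, edgeR adjusted p = 0.311) and the abundant Gpx2 (-0.27 ± 0.39, edgeR adjusted p = 0.585) did not pass. Of 10 aryl hydrocarbon receptor genes 4 rose and 1 fell, and 2 rose without NL-shGFP replicate 1, 2, 4 or 5 or FL-shGFP replicate 3 or 4. Ido1 (-2.99 ± 0.72), which opens the kynurenine path from tryptophan, measured 283, 284, 372, 412 and 30.3 CPM in NL-shGFP and 59.2, 32.4, 10.7, 64.7 and 6.54 CPM in FL-shGFP. It fell although NL-shGFP replicate 5 lay in the FL-shGFP range (edgeR adjusted p = 0.00409).

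Zinc, metallothionein and iron genes changed in both directions. Slc39a4, the apical zinc importer, measured 179.9, 207, 168, 172 and 153 CPM in NL-shGFP and 341, 429, 419, 427 and 315 CPM in FL-shGFP, without overlap (1.13 ± 0.14, edgeR adjusted p = 2.76e-05). Slc30a2 (4.54 ± 0.38), which loads zinc into vesicles, and Mt2 (4.15 ± 0.79) rose from low levels with Mt1, and Mt3 (-1.70 ± 0.21) fell, with edgeR adjusted p at or below 0.000741. Of 26 zinc and metallothionein genes 8 rose and 5 fell, near the shares of all genes. Without any 1 of NL-shGFP replicates 3, 4 and 5 and FL-shGFP replicates 1 and 4, 3 fell. Tfrc, the transferrin receptor of dividing cells, measured 364, 331, 386, 407 and 595 CPM in NL-shGFP and 148, 146, 111, 183 and 192 CPM in FL-shGFP, without overlap (-1.41 ± 0.22, edgeR adjusted p = 0.000156). Slc40a1 (1.49 ± 0.35), the iron exporter ferroportin, rose from 67.6 ± 15.8 to 190.2 ± 85.2 CPM with the iron store Fth1 and the carrier Trf (2.52 ± 0.34), with edgeR adjusted p at or below 0.00356. The heme enzyme Uros (-1.67 ± 0.16) and the ferrireductase Steap3 (-1.24 ± 0.12) fell, and the importer Slc11a2 did not pass (-0.05 ± 0.16, edgeR adjusted p = 0.839). Of 32 iron and heme genes 10 rose and 9 fell.

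At the cell surface, most brush border and junction genes rose, and fewer glycan genes did. Of brush border genes, 24 of 30 tested members rose and 1 fell (median 0.83). The membrane protease Mep1b, a meprin subunit, measured 45.2, 46.05, 34.3, 36.1 and 14.5 CPM in NL-shGFP and 273, 410.2, 165, 430.2 and 116 CPM in FL-shGFP, without overlap (2.98 ± 0.43, edgeR adjusted p = 0.000115). The actin nucleator Cobl (1.56 ± 0.17) and the linker Ezr (0.98 ± 0.15) rose, with edgeR adjusted p at or below 0.000126. Of adherens and desmosome genes, 13 of 22 tested members rose and 4 fell (median 0.46), with Cdh17 (1.11 ± 0.18), Dsg2 (1.28 ± 0.17) and Cdh3 (4.07 ± 0.57) up and Nectin1 (-0.91 ± 0.12) down. Of O-glycan and other glycosyltransferase genes, 23 of 61 tested members rose and 10 fell (median 0.21). Gcnt1, which branches core O-glycans, measured 14.03, 13.5, 10.6, 11.97 and 4.75 CPM in NL-shGFP and 127, 76.2, 98.9, 206 and 53.2 CPM in FL-shGFP, without overlap (3.35 ± 0.39, edgeR adjusted p = 2.76e-05). B4galt1 (1.37 ± 0.16) and Gcnt4 (1.25 ± 0.13) rose and B3galt2 (-1.78 ± 0.21) and B4galnt2 (-0.50 ± 0.13) fell, with edgeR adjusted p at or below 0.00575. St8sia5 (7.65 ± 1.16), a sialyltransferase of gangliosides, rose from near 0 (edgeR adjusted p = 0.000173). Sialyl- and fucosyltransferases rose in 11 of 24 cases and fell in 4.

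Of keratins 8 of 19 rose and 2 fell, among them the surface keratin Krt20 (1.06 ± 0.33) and Krt23 (2.06 ± 0.34), with Krt7 (-0.55 ± 0.09) down. Of squamous and cornified-envelope genes 13 of 27 rose and 3 fell, and 7 rose with the close NL-shGFP pairs summed. Tgm3, a transglutaminase that cross-links cornified envelopes, measured 6.03, 5.51, 20.1, 19.4 and 2.25 CPM in NL-shGFP and 949.6, 758, 119, 823 and 84.4 CPM in FL-shGFP. FL-shGFP replicates 3 and 5 were the lower ones of the group, and the groups did not overlap (5.68 ± 0.84, edgeR adjusted p = 0.000144). Of 6 tested Sprr envelope genes 5 rose, and Sprr1a did not pass (-0.06 ± 0.44, edgeR adjusted p = 0.927).

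Of extracellular matrix and basement membrane genes 42 of 85 rose and 5 fell (median 1.51), and their sum was 558 ± 41.6 CPM in NL-shGFP and 1263 ± 345 CPM in FL-shGFP. The epithelial laminin chain Lamb3 measured 59.5, 63.9, 46.6, 43.4 and 33.04 CPM in NL-shGFP and 215, 256, 208, 249.8 and 139 CPM in FL-shGFP, without overlap (2.11 ± 0.27, edgeR adjusted p = 4.32e-05), and Lama5 (2.71 ± 0.37) rose with it. The fibrillar collagen Col3a1, a fibroblast gene, did not pass (1.24 ± 0.87, edgeR adjusted p = 0.253). Stromal marker genes rose as well, as given with the libraries, and their part in the matrix list was not tested. Of lysosome and autophagy genes 33 of 77 rose and 2 fell. Neu1, the lysosomal sialidase, measured 88.96, 86.9, 49.4, 54.8 and 37.2 CPM in NL-shGFP and 459, 466, 256, 549 and 172 CPM in FL-shGFP, without overlap (2.58 ± 0.34, edgeR adjusted p = 6.99e-05), and Ctsl (1.68 ± 0.18) and Npc1 (1.23 ± 0.15) rose with edgeR adjusted p at or below 2.73e-05.

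Growth factor genes rose at the EGF receptor family. Of 22 genes 16 rose and 2 fell. The ligands Areg, from 11.2 ± 4.12 to 54.7 ± 11.6 CPM (2.29 ± 0.33, edgeR adjusted p = 0.000129), and Ereg, from 1.09 ± 0.409 to 13.1 ± 10.2 CPM (3.58 ± 0.53, edgeR adjusted p = 0.0001397), rose with Tgfa (0.94 ± 0.14) and the receptor Erbb3 (1.15 ± 0.14), and Egfr itself did not pass (0.28 ± 0.12, edgeR adjusted p = 0.0684). Among Eph genes 7 of 17 rose and 7 fell, with the ligand Efna1 (1.43 ± 0.26) and the receptor Epha2 (1.65 ± 0.23) up and the receptors Ephb3 (-2.55 ± 0.23), which marks the crypt base, and Ephb4 (-1.29 ± 0.28) down. Hedgehog genes fell at the ligand Ihh (-0.91 ± 0.18) and at Smo (-1.41 ± 0.26) and Boc (-1.69 ± 0.26), and rose at Gas1 (5.07 ± 0.87), a co-receptor (5 of 9 fell and 3 rose). Of 21 Hippo genes 6 rose and 5 fell, near the shares of all genes, with Vgll4 (-1.30 ± 0.15) down.

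Hox genes, which mark position along the gut, fell mostly at low numbers in the cluster and moved in both directions at high numbers. Of 27 tested Hox genes 4 rose and 15 fell (median -0.80), and the low-numbered genes, which act toward the front of the body, held most of the falls. Of 17 genes numbered 1 to 8, 0 rose and 12 fell (median -1.11). Of 10 numbered 9 to 13, 4 rose and 3 fell (median 0.77), a division made after the values were seen. That median lies between 2 Hoxd genes that did not pass (0.65 ± 0.82 and 0.88 ± 0.66), so it does not show a rise of the 10 as a set. Hoxb13, expressed toward the rectum, measured 5.16, 5.51, 7.69, 9.06 and 6.0001 CPM in NL-shGFP and 79.4, 94.6, 31.1, 85.4 and 23.9 CPM in FL-shGFP, and all FL-shGFP values were above all NL-shGFP values (3.23 ± 0.36, edgeR adjusted p = 2.14e-05). Hoxa13 rose with overlapping groups (1.63 ± 0.45, edgeR adjusted p = 0.00874). Hoxb6 measured 63.02, 66.9, 50.3, 46.8 and 49.9 CPM in NL-shGFP and 9.697, 9.12, 21.6, 6.58 and 24.97 CPM in FL-shGFP, without overlap (-1.94 ± 0.36, edgeR adjusted p = 0.000664). Hoxb8 (-2.03 ± 0.39) and Hoxb4 (-1.80 ± 0.40) of the same cluster fell too, with edgeR adjusted p of 0.000855 and 0.00218. Hoxd9 (2.83 ± 0.82, edgeR adjusted p = 0.0114) and Hoxd10 rose at levels under 1 CPM, and 2 Hox genes rose with a filter of 1 CPM in 4 libraries. The Hoxd10 call (edgeR adjusted p = 0.0259) was lost without NL-shGFP replicate 1, 2 or 5 or FL-shGFP replicate 1 or 4 (highest adjusted p over the edgeR, DESeq2 and limma alternatives, 0.173). The labels do not say which stretch of colon the crypts came from, so position and group cannot be told apart for these genes, nor for others that vary along the colon.

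**Figure D5:**
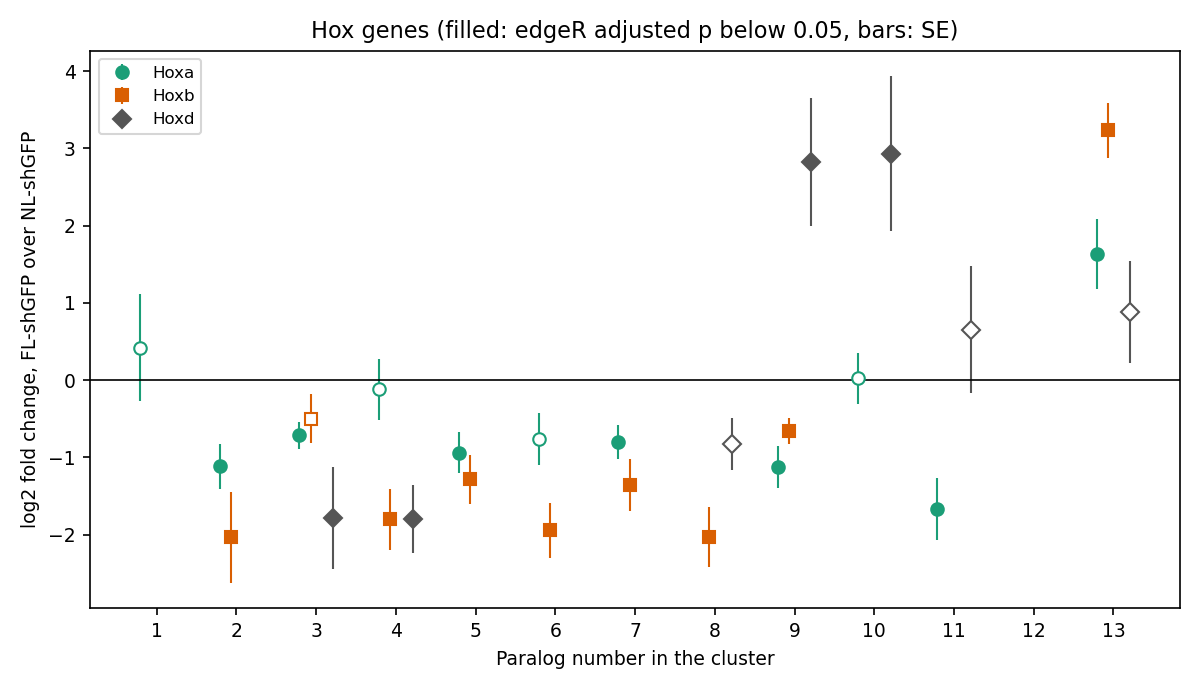
Log2 fold change of FL-shGFP over NL-shGFP for 27 Hox genes against their paralog number, by cluster (Hoxa circles, Hoxb squares, Hoxd diamonds). Bars are standard errors and filled symbols passed edgeR at an adjusted p below 0.05. All genes numbered 2 to 8 lie below 0, and Hoxb13, Hoxa13, Hoxd9 and Hoxd10 are the filled symbols above it.

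Of 51 intestinal and nuclear receptor transcription factors 17 rose and 13 fell. Klf4 (1.26 ± 0.25), a factor of differentiated cells, rose from 202 ± 34.8 to 483 ± 136 CPM, Maf (3.14 ± 0.43) from 4.74 ± 1.86 to 41.9 ± 18.2 CPM, and Klf13 (0.61 ± 0.09) and the bile acid receptor Nr1h4 (1.15 ± 0.12) rose, with edgeR adjusted p at or below 0.00111. Cdx2 (-0.69 ± 0.12), the master factor of the intestine, fell from 186 ± 13.1 to 116 ± 21.1 CPM, while Hnf4a (0.02 ± 0.13, edgeR adjusted p = 0.901), Vdr (0.25 ± 0.12, edgeR adjusted p = 0.0993) and Pparg (-0.09 ± 0.13, edgeR adjusted p = 0.567) did not pass. Of 341 Zfp genes 27 rose and 89 fell, and 16 rose without NL-shGFP replicate 2, and 48 fell with totals alone. Of chromatin genes 12 of 48 rose and 11 fell, near the shares of all genes, with Uhrf1 (-1.68 ± 0.49), Hdac2 (-1.11 ± 0.18) and Cbx2 (-1.49 ± 0.26) down and Tet2 (0.98 ± 0.14) up, and 6 rose with the close NL-shGFP pairs summed. Dnmt1 did not pass (-0.71 ± 0.30, edgeR adjusted p = 0.0587). Of 39 histone genes 2 rose and 9 fell, Hist1h1c (1.90 ± 0.27) being one of the rises, and 5 fell with totals alone or with the close NL-shGFP pairs summed. Of potassium channel genes 8 of 46 rose and 8 fell, and Kcne3 (-1.72 ± 0.22), the subunit of the basolateral channel that drives chloride secretion, fell from 135 ± 32.4 to 41.01 ± 12.8 CPM. Without FL-shGFP replicate 1, 5 potassium channel genes rose, and without NL-shGFP replicate 3 or 4, 5 fell.

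Epithelial defence genes changed in both directions. Duox2, the apical oxidase that makes hydrogen peroxide, measured 304, 314, 331, 332 and 206 CPM in NL-shGFP and 798, 797, 612, 836 and 429 CPM in FL-shGFP, without overlap (1.22 ± 0.20, edgeR adjusted p = 0.0002302), and its maturation factor Duoxa2 (1.40 ± 0.24) rose with it, while Nos2, the inducible nitric oxide synthase, did not pass (1.09 ± 0.45, edgeR adjusted p = 0.0597). Nox1, the oxidase of the crypt base, fell (-1.59 ± 0.58, edgeR adjusted p = 0.0359), but not without NL-shGFP replicate 4 or 5 or FL-shGFP replicate 1, 2 or 4 (highest adjusted p over the edgeR, DESeq2 and limma alternatives, 0.0943). Of 15 genes of this list 10 rose. Of gasdermin, caspase and inflammasome genes 17 of 43 rose and 7 fell. Gsdmd, the pore-forming gasdermin, measured 121, 135, 119.5, 123 and 86.7 CPM in NL-shGFP and 407, 375, 247, 381 and 173 CPM in FL-shGFP, without overlap (1.44 ± 0.23, edgeR adjusted p = 0.000208). The caspase Casp4 (1.17 ± 0.25) and the cytokine Il18 (2.60 ± 0.34) rose, and Gsdmc3 (-3.78 ± 0.49) fell from 66.4 ± 12.3 to 4.85 ± 2.28 CPM. Of 4 tested Gsdmc genes 0 rose and 2 fell (median -2.42). Of phospholipase and eicosanoid genes 20 of 42 rose and 7 fell, with Pla2g4f (3.01 ± 0.41) up and Pla2g4c (-2.71 ± 0.35) and Pla2g3 (-2.21 ± 0.32) down. Of MHC class I genes 7 of 26 rose and 5 fell, near the shares of all genes (4 rose with the close NL-shGFP pairs summed). H2-D1 (1.06 ± 0.22) was up and the immunoproteasome subunits Psmb9 and Psmb10 were down. Of p53 targets 9 of 26 rose and 5 fell, with Cdkn1a (1.22 ± 0.33), Pmaip1 (2.43 ± 0.42) and Perp (0.68 ± 0.13) up.

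Outside every list, and with antigen receptor segments, predicted genes and pseudogenes left out, the largest rises by fold among genes with at least 5 CPM and no overlap included acute-phase and secreted proteins. Lbp, which presents bacterial lipopolysaccharide to immune cells, measured 0.7795, 1.496, 2.65, 2.86 and 0.682 CPM in NL-shGFP and 121, 122, 59.2, 89.5 and 34.4 CPM in FL-shGFP, without overlap (5.65 ± 0.70, edgeR adjusted p = 4.14e-05). Plat, the tissue plasminogen activator, measured 1.92, 1.27, 3.01, 2.89 and 0.825 CPM in NL-shGFP and 60.7, 94.7, 95.2, 59.1 and 46.97 CPM in FL-shGFP (5.17 ± 0.52, edgeR adjusted p = 1.21e-05). Others were the acute-phase protease inhibitor Serpina3n (4.90 ± 0.75), the copper oxidase Cp (4.58 ± 0.71), the iron-binding Ltf (4.92 ± 0.61), the chitinase-like Chil3 (4.50 ± 0.46), the B cell chemokine Cxcl13 (5.57 ± 0.71), the receptor of activated lymphocytes Tnfrsf8 (5.17 ± 0.53), the pancreatic lipase relative Pnliprp2 (4.87 ± 0.57), the monooxygenase Fmo2 (5.43 ± 0.72), and the BMP modulators Bmper (4.59 ± 0.35) and Mgp (4.82 ± 0.68), with edgeR adjusted p at or below 0.000209. Ltf, Chil3, Cxcl13, Tnfrsf8 and Mgp are also genes of immune or stromal cells. The falls held Nxpe2, of the neurexophilin and PC-esterase family, which measured 70.5, 66.9, 78.6, 75.5 and 86.6 CPM in NL-shGFP and 8.62, 10.8, 10.8, 7.14 and 11.6 CPM in FL-shGFP, without overlap (-2.95 ± 0.24, edgeR adjusted p = 2.37e-06). Ptpro (-3.28 ± 0.46), a receptor phosphatase, and Rgcc (-3.32 ± 0.40) and Rmi2 (-2.92 ± 0.47), which act in the cell cycle and genome repair, fell with edgeR adjusted p at or below 0.000234.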

How the data were processed

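RNA-seq of colonic crypts gave a table of raw counts per gene and a table of FPKM, both deposited by the authors. HISAT2 is named per the submitters' processing notes. Its version, the counting tool, the strand setting, the build and the annotation were not given in the sources used here. Most counts were even numbers (72.4% to 77.2% of counts from 1 to 12), so counts halved and rounded were tried. FPKM values, per the file headers and the deposited table, served only as an alternative, on the log2(FPKM + 1) and log2(FPKM + 0.1) scales.

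Groups came from the titles. All 15 libraries entered 1 edgeR 4.0.16 quasi-likelihood fit (robust, TMM factors, filterByExpr, 12 residual degrees of freedom, R 4.3.3), with the contrast FL-shGFP minus NL-shGFP and Benjamini-Hochberg adjustment over the 17404 genes tested. Standard errors are the absolute log2 fold change over the square root of F. The common biological coefficient of variation was 30.2%. The total counts per library bound the precision, and a fold against a group at 0 uses a floor of 3 counts over the group. Most counts were even, so a fragment may have entered as 2 counts, and such a fold is then not a lower bound. Library measures were compared by two-sided exact permutation tests over the 252 ways to split 5 and 5. The test was tested on simulated data. Far fewer genes were changed in those data than were called here. Alternatives were other factors and filters, DESeq2 1.42.0, limma 3.58.1 on FPKM, only the 2 groups, each library left out, mitochondrial genes removed, a replicate block and summed close pairs. The pair of NL-shGFP replicates 3 and 4 had the smallest median chi-square between replicates, 1.52, and replicates 1 and 2 the next, 2.35, against up to 10.3 for other NL-shGFP pairs. Divided by 2, since most counts were even, these medians were 0.76 for replicates 3 and 4 and 1.18 for replicates 1 and 2. Counting error alone gives 0.455, so the pairs stayed separate. The check cannot tell whether a pair shares an animal or an RNA sample.

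The 56 gene lists and 10 marker lists, and the genes in them, were chosen with earlier results of these data known. The text names, of a list, key genes, up to 4 members that passed with the smallest p and up to 2 of the most abundant that did not. It also names the 15 largest gains and losses of mean CPM, and the 15 largest folds each way outside the lists with at least 5 CPM and no overlap. Ciart, Hoxa13, Hoxd9, G6pc, Gapdh, Sis, Gata4 and the markers Epcam, Cdh1, Alb, Adipoq, Lct and Defa17 were named outside this rule. Some genes under the rule are not reported here. Gene symbols came from a RefSeq table (32241 of 32939 identifiers matched) and promoter windows from RefSeq on GRCm38.p6. The FL-shAlpl libraries entered only the factors, the filter and the estimate of the spread, and genes with too few counts were not tested.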

Additional observations from a re-analysis of the deposited data

Results flagged for a closer look

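In each group of 5, the highest or lowest library was compared with its nearest neighbour on the log2(CPM + 0.5) scale, and a gene is given here where that gap took more than 0.71 of the group's range (Dixon's 95% critical value). This held for 42 of 552 groups of 5, or 7.61%, over the 274 genes named in the text and 2 library measures, and chance gives about 1 in 20. Most of them, 24, were in NL-shGFP replicate 5, which was the lowest of its group for 22 genes. No cause was tested. NL-shGFP replicate 5 was far below its group in Aldh1a3 (3.0996 CPM, others 5.91 to 7.08), Casp4 (27.7 CPM, others 43.5 to 48.4), Duox2 (206 CPM, others 304 to 332), Duoxa2 (16.4 CPM, others 36.1 to 44.9), Gcnt1 (4.75 CPM, others 10.6 to 14.03) and Gpcpd1 (18.000 CPM, others 25.8 to 27.3). It was also far below in Gsdmd (86.7 CPM, others 119.5 to 135), H2-D1 (508 CPM, others 740.2 to 853), Hist1h1c (16.3 CPM, others 32.5 to 41.1), Ido1 (30.3 CPM, others 283 to 412), Maf (1.51 CPM, others 4.89 to 6.05) and Mep1b (14.5 CPM, others 34.3 to 46.05). The same holds for Nos2 (21.9 CPM, others 113 to 159), Pdk4 (1.71 CPM, others 4.19 to 5.66), Pmaip1 (7.25 CPM, others 13.7 to 15.04), Pnliprp2 (0.739 CPM, others 2.22 to 2.89), Psma4 (115 CPM, others 136 to 139) and Psmb9 (28.9 CPM, others 67.6 to 87.2). The same holds for Rdh16 (6.77 CPM, others 14.9 to 18.3), Slc15a1 (1.59 CPM, others 8.095 to 12.3), Slc7a9 (0.768 CPM, others 2.75 to 3.303) and mt-Rnr1 (2345 CPM, others 4423 to 5425). NL-shGFP replicate 5 was far above its group in Hsd11b2 (245 CPM, others 174 to 190.0) and Nox1 (43.8 CPM, others 21.02 to 23.9). NL-shGFP replicate 1 was far below its group in Rps21 (169 CPM, others 205 to 213). NL-shGFP replicate 1 was far above its group in Fmo2 (0.5397 CPM, others 0.159 to 0.199) and Nr3c1 (78.5 CPM, others 64.8 to 68.3). NL-shGFP replicate 2 was far above its group in Gapdh (112 CPM, others 5.69 to 9.41) and Gstm2 (62.8 CPM, others 54.4 to 55.6). FL-shGFP replicate 1 was far above its group in Slc6a20a (6.31 CPM, others 3.51 to 4.14). FL-shGFP replicate 2 was far below its group in Igfbp3 (0.973 CPM, others 3.15 to 4.403) and Nr1d2 (38.2 CPM, others 48.2 to 52.5). FL-shGFP replicate 2 was far above its group in Yars (36.2 CPM, others 30.6 to 31.4). FL-shGFP replicate 4 was far below its group in Atp5b (840.3 CPM, others 1174 to 1339) and Psma4 (71.2 CPM, others 92.3 to 98.6). FL-shGFP replicate 4 was far above its group in Aldh1a2 (4.34 CPM, others 1.099 to 1.62), Ereg (31.2 CPM, others 7.08 to 9.91), Fmo2 (35.4 CPM, others 4.35 to 5.73) and Slc43a2 (33.5 CPM, others 24.7 to 26.6). FL-shGFP replicate 5 was far below its group in Ezr (527 CPM, others 753 to 869) and Nr1d1 (23.2 CPM, others 37.6 to 44.03). FL-shGFP replicate 5 was far above its group in Ass1 (10.4 CPM, others 7.02 to 7.84).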

How the results depend on the processing

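The number of genes that changed lay between 6186 and 8816 over all alternatives. Leaving out 1 library at a time, it was 6841 to 8816, the number changed by at least 2-fold 3064 to 4193, the difference in mitochondrially encoded share -17.7 to -15.4 percentage points and that in total counts 8.33 to 11.9 M. With the limma model on log2(FPKM + 1), 1247 genes changed by at least 2-fold, where the pseudocount shrinks the folds of low genes. With the close NL-shGFP pairs summed, the difference in total counts was 10.2 M (exact permutation p = 0.0893). Lower calls fell to 2347 with totals alone. No named gene that passed turned sign under an alternative, none passed in the opposite direction under one, and each alternative gave a value for at least 266 of the 274 named genes. Many of those that passed were named for a small p or a large change, so their steady signs say little of the other calls. Of named genes that did not pass, 15 turned sign under at least 1 alternative, Gapdh from -1.51 to 0.45 without NL-shGFP replicate 2. Counting all 10 libraries separately is how the fit was made, since no pair was merged. The replicate numbers are not stated to pair the samples, and same-numbered deviations correlated at 0.13, 0.12, -0.05, 0.07 and 0.33. As these were not all above 0.1, the numbers were not taken to pair the samples, though 3 of 5 were above it and not every library correlated best with its own number. With a replicate block 7295 genes changed, 3373 of them by at least 2-fold. Named as not passing, Mat2a, Pcyt1a, Psat1, Npm1, Rplp0, Ndrg1, Egfr, Dnmt1, Nos2 and mt-Rnr1 passed under at least 1 alternative. Depth limits genes under about 1 CPM. No biological cause was tested.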

Other observations

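Of the 123 genes at 0 counts in every NL-shGFP library and present in every FL-shGFP library, 52 are protein coding, and 3 are given here, chosen after their values were seen. Camp, the cathelicidin of neutrophils and epithelium, had 26, 4, 341, 96 and 143 counts in FL-shGFP, 155-fold higher against a floor of 3 counts over the NL-shGFP group. Psca, a surface antigen of stomach and bladder epithelium, had 14, 20, 157, 61 and 105 counts, 90.7-fold higher against that floor. Cyp4a10, a fatty acid hydroxylase and PPAR alpha target, had 3, 2, 136, 17 and 68 counts, 57.4-fold higher against it. FL-shGFP replicate 3 held the most reads of G6pc and of these 3 genes, and replicate 2 the fewest of all but Psca. In the other direction, Lrrtm1, which encodes a synaptic membrane protein, had 65, 56, 29, 20 and 13 counts in NL-shGFP and 0 in FL-shGFP. It was 80.0-fold lower, with the floor of 3 counts over the FL-shGFP group. Hsd3b1, a steroid dehydrogenase, had at most 4 counts in NL-shGFP and 6, 14, 34, 8 and 12 counts in FL-shGFP.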
